A study of Mus musculus with 64 samples.

Results

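Indole-3-carbinol (I3C) was tested in wild-type (Ahr+/+) bone marrow-derived macrophages (BMMs) that were activated for 20 h. The 8 libraries described are 4 labelled wild type, I3C and hk S.E. activation at 20 h, and 4 labelled wild type, no ligand and hk S.E. activation at 20 h, chosen by these labels out of the 64 libraries of the series. Both groups came from female Ahr+/+ C57BL/6JRj mice aged 8 to 12 weeks. Their bone marrow was grown into macrophages with medium conditioned by the fibroblast line L929, and all cultures carried this and the same activation. I3C was given at 10 µM, and the control cultures received 0.01% of the solvent DMSO. After 6 h of exposure, 10000000 heat-killed Salmonella enterica serovar Enteritidis per ml (hk S.E.) were added for 20 h. For comparison the series holds Ahr-/- BMMs from knockout mice backcrossed to the same strain, Ahr+/+ BMMs activated for 3 h, BMMs exposed to 1 µM benzo(a)pyrene (BaP), and resting BMMs that received DMSO and no bacteria, each with 4 libraries. The study took marrow from 4 mice of each genotype, so the 4 libraries of a group are read here as 4 mice.

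The aryl hydrocarbon receptor (AhR) is a transcription factor that waits in the cytoplasm in a complex with chaperones. When a ligand binds, it enters the nucleus, pairs with ARNT and binds DNA at the xenobiotic response element, whose core letters are GCGTG. Its best known targets are the Cyp1 enzymes, which oxidise the ligand, the repressor Ahrr, which competes with AhR for ARNT, Tiparp, which ADP-ribosylates AhR, and Nqo1, a quinone reductase that also answers to the oxidative stress factor NRF2. I3C is a breakdown product of the glucosinolates of cabbages, and in acid it condenses into further AhR ligands. In macrophages AhR is best known for tuning the response to bacterial products.

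The libraries held 21475497 to 30515358 counted read pairs on genes with I3C and 21933112 to 47689280 with DMSO. Levels are given as CPM, counts relative to the size of the library and scaled for its composition, and differences as log2 fold changes of I3C against DMSO with their standard error. The macrophage label of the cultures was checked against 12 marker genes. All 12 were found, and their summed level was 20973 to 24817 CPM with I3C and 19570 to 23774 CPM with DMSO. Markers of T or NK cells summed to 1.81 to 2.44 CPM with I3C and 1.63 to 2.43 CPM with DMSO, those of B cells to at most 1.16 CPM, those of mast cells or basophils to at most 1.38 CPM, and those of erythroid cells to at most 0.112 CPM in both groups. Fibroblast markers summed to 4.10 to 5.63 CPM with I3C and 4.21 to 6.13 CPM with DMSO. Dendritic cell markers reached 30.8 to 58.4 CPM with I3C and 34.8 to 74.8 CPM with DMSO, and 4 of the 8 were under 1 CPM in every I3C library and 6 in every DMSO library. Of the 12 neutrophil markers 5 were under 1 CPM in every library of each group. Elane was at 0 in all 8 libraries, and Mpo and Ly6g did not exceed 0.0466 CPM. The other 7 reached 1 CPM in at least 1 library of each group. The 8 markers that passed the filter had a median log2 fold change of -0.18, from Ngp at -0.42 and Camp at -0.31 to Cxcr2 at 0.30, and none was called. The summed neutrophil list reached 1605 to 2183 CPM with I3C and 1845 to 2428 CPM with DMSO, most of it from Lcn2, at a mean of 1816 and 2069 CPM, which activated macrophages also express. The part of other cells in the results was not tested. In bulk RNA, fewer cells of a type and less RNA per cell cannot be told apart.

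Of 14537 genes tested, 7 were higher and 67 were lower with I3C (edgeR's quasi-likelihood test, adjusted p below 0.01, 0.509% of the genes tested, 0.0482% higher and 0.461% lower). The 7 higher genes were all protein-coding. They were Ahrr, Mmp8, Mmp27 and Spint1, with log2 fold changes between 1.41 and 1.76, and Tma16, Exoc3 and Npepps, between 0.27 and 0.39. The 67 lower genes fell into classes of unlike structure, 34 protein-coding genes that were mostly of great genomic length and 33 processed pseudogenes. This test did not pair the replicates. With the replicate number as a block, which pairs them, 147 genes passed, 32 higher and 115 lower (1.01%, 0.22% and 0.791%), and they included all 74.

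The 2 promoters below are shown because Ahrr and Spint1 were the higher genes with the most copies of the GCGTG core. They are the 250 bases before the RefSeq start of each gene (GRCm38.p6), written 5′ to 3′ on the gene's strand, for Ahrr at chr13:74292332-74292581 on the minus strand and for Spint1 at chr2:119237110-119237359 on the plus strand. Capitals mark GCGTG or, for a core on the other strand, CACGC.
Ahrr: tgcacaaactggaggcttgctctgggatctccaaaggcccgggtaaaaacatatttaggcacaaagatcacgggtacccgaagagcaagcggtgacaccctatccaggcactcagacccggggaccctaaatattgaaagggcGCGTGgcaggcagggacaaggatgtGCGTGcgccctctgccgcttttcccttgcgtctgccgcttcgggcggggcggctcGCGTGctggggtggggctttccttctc
Spint1: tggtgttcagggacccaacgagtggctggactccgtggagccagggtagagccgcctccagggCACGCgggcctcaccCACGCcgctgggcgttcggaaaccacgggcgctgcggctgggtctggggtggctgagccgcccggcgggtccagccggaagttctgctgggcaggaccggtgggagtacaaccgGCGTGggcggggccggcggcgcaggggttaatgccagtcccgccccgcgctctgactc

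Each of these promoters held 3 copies of the core. In windows from 250 bases before to 50 bases after the start, Npepps held 1 copy and Mmp8, Mmp27, Tma16 and Exoc3 held none, so 3 of 7 higher genes had a match. Of the 34 lower protein-coding genes 20 had a window, and 13 of these (65%) held the core. Among the genes called higher with the replicate block it was 11 of 30 (36.7%). A match was found in 55.1% of the 10014 tested genes with a RefSeq window and in 32.4% of all 32851 windows, and 8.70% of the tested genes held at least 3. The letters alone describe these windows and do not show binding.

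Ahrr (chr13:74211118-74292331) was measured at 14.4, 16.6, 17.1 and 16 CPM in the I3C libraries of replicates 1 to 4 and at 5.84, 6.16, 5.94 and 4.58 CPM in the DMSO libraries. The groups were far apart, and even the lowest I3C library exceeded every DMSO library. The log2 fold change was 1.51 ± 0.18 (SE, n = 4 and 4, adjusted p = 9.03e-08). In Ahr-/- BMMs the gene was near its floor, at 0.738 ± 0.0822 CPM (SD, n = 4) with DMSO and 0.671 ± 0.199 CPM with I3C. The difference between the genotypes in the I3C effect was 1.63 ± 0.30 on the log2 scale (adjusted p = 0.0155, and 0.00167 with the replicate block). At 3 h Ahrr rose from 0.514 ± 0.112 to 2.29 ± 0.323 CPM, a log2 fold change of 2.13 ± 0.28 (adjusted p = 5.78e-06). The level under DMSO at 20 h was close to that of resting BMMs, at 5.19 ± 0.636 CPM.

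Mmp8, a collagenase, and Mmp27, another matrix metalloproteinase, lie next to each other on chromosome 9, 2.91 kb apart. Mmp8 (chr9:7558456-7568485) had 19.8, 28.8, 27.8 and 19.0 CPM with I3C and 8.09, 12.8, 9.65 and 5.41 CPM with DMSO. All I3C libraries lay above all DMSO libraries, and replicates 2 and 3 were the higher ones in both groups. Its log2 fold change was 1.41 ± 0.20 (adjusted p = 5.16e-06). Mmp27 (chr9:7571396-7581885) was measured at 1.82, 2.60, 2.26 and 2.16 CPM against 0.809, 0.971, 0.440 and 0.469 CPM, again without overlap. It rose by 1.76 ± 0.33 on the log2 scale (adjusted p = 0.000856), and this call was lost without DMSO replicate 3 (adjusted p = 0.012) or 4 (adjusted p = 0.015).

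Both metalloproteinases were low without the receptor. In Ahr-/- BMMs Mmp8 had 0.874 ± 0.259 CPM with DMSO and 0.610 ± 0.124 CPM with I3C, and Mmp27 had 0.137 ± 0.133 and 0.114 ± 0.087 CPM. The I3C effect on Mmp8 differed between the genotypes by 1.97 ± 0.37 (adjusted p = 0.0155, and 4.86e-06 with the block). For Mmp27 that difference was 1.93 ± 0.67 (adjusted p = 0.987). At 3 h the Mmp8 level was 28.2 ± 4.65 CPM with DMSO and 41.0 ± 3.59 CPM with I3C (log2 fold change 0.54 ± 0.20, adjusted p = 0.5), and Mmp27 stood at 2.08 ± 0.783 and 2.40 ± 0.474 CPM. Resting BMMs at 20 h had 11.4 ± 1.86 CPM of Mmp8 and 2.32 ± 0.38 CPM of Mmp27, the latter close to the level with I3C.

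Spint1 (chr2:119237362-119249527) encodes a Kunitz-type inhibitor of membrane serine proteases. Its levels were 6.47, 6.61, 7.54 and 5.53 CPM with I3C and 2.16, 2.76, 2.77 and 2.04 CPM with DMSO, with no overlap. It rose by 1.43 ± 0.21 (adjusted p = 6.58e-06). Ahr-/- BMMs held 0.128 ± 0.104 CPM with DMSO and 0.103 ± 0.0552 CPM with I3C. The genotype difference was 1.73 ± 0.52 (adjusted p = 0.987). At 3 h the log2 fold change was 1.17 ± 0.25 (adjusted p = 0.013), from 1.05 ± 0.289 to 2.36 ± 0.226 CPM.

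The other 3 higher genes moved by little from high levels. Tma16, a factor of ribosome biogenesis, had 129, 144, 146 and 148 CPM with I3C and 99.7, 114, 99.7 and 118 CPM with DMSO (0.39 ± 0.09, adjusted p = 0.00715). Exoc3, a subunit of the exocyst, had 72.0, 74.7, 83.7 and 83.4 CPM against 60.6, 64.7, 61.7 and 70.7 CPM (0.28 ± 0.06, adjusted p = 0.0042). It is the neighbour of Ahrr on chromosome 13, 2.385 kb away, and on the same strand. Npepps, the puromycin-sensitive aminopeptidase, had 189, 176, 188 and 190 CPM against 152, 163, 148 and 151 CPM (0.27 ± 0.06, adjusted p = 0.00563). In none of these did the groups overlap, but all lost the call without a filter on low counts, at adjusted p of 0.025 for Tma16 and 0.083 for both others. In Ahr-/- BMMs their log2 fold changes were 0.07, 0.04 and -0.07.

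**Figure D1:**
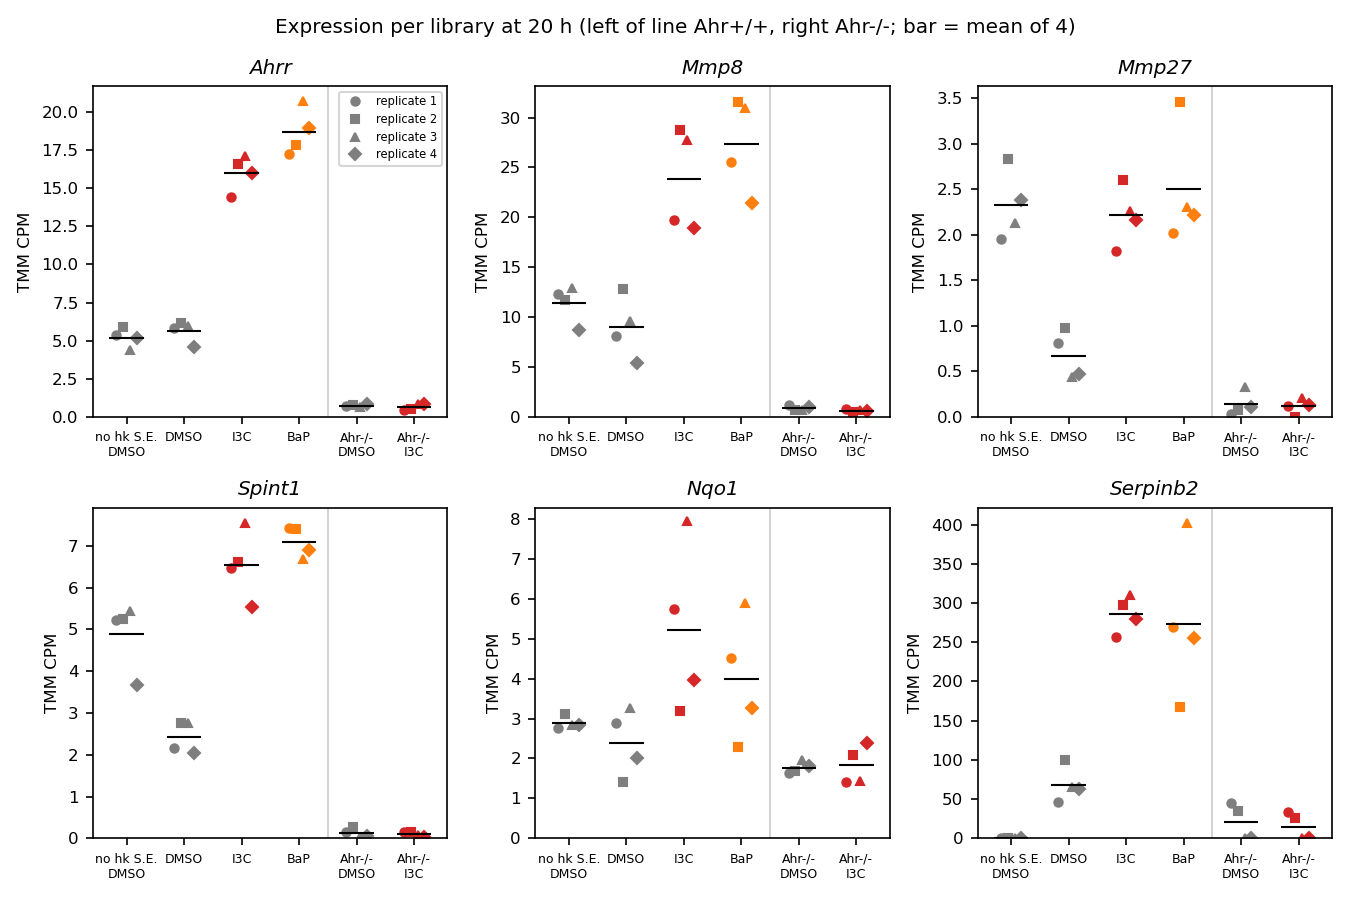
CPM (linear axis) of Ahrr, Mmp8, Mmp27, Spint1, Nqo1 and Serpinb2 at 20 h in resting Ahr+/+ BMMs, in activated Ahr+/+ BMMs with DMSO, I3C or BaP, and in activated Ahr-/- BMMs with DMSO or I3C, with 1 point for a library and a bar for the mean of 4. In activated Ahr+/+ BMMs the I3C points lie above all DMSO points except for Nqo1, and in Ahr-/- BMMs the first 4 genes have group means of at most 0.874 CPM.

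No gene passed at an adjusted p below 0.01 in the test of the I3C effect between the genotypes (0% of the genes tested). By edgeR 287 genes had an unadjusted p below 0.05 in that test, and DESeq2 on all libraries called 2. With the block 4 genes passed, Ahrr, Mmp8, Acpp and Serpinb2, each with the larger effect in Ahr+/+ BMMs. Serpinb2, the plasminogen activator inhibitor 2, had the widest gap in level of these genes. Its levels were 256, 298, 310 and 280 CPM with I3C and 45.7, 99.8, 65.4 and 62.9 CPM with DMSO. The groups were clearly separate, yet the log2 fold change of 2.06 ± 1.03 missed the threshold across all libraries (adjusted p = 0.875) and passed with the block (adjusted p = 7.03e-12) or in a fit of these 8 libraries alone (adjusted p = 0.00014). The Ahr-/- libraries ranged from 0 to 45.6 CPM with DMSO and from 0 to 33.1 CPM with I3C, and so spread far more than the Ahr+/+ ones. Resting BMMs held 0.0312 ± 0.0367 CPM. Acpp, an acid phosphatase, rose from 31.0 ± 2.69 to 55.6 ± 8.61 CPM by the blocked test (0.84 ± 0.23, adjusted p = 0.0556, and 4.67e-06 with the block).

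Serpinb8, a serpin gene 54.5 kb from Serpinb2, stood at 23.0, 28.7, 30.5 and 27.2 CPM with I3C and 15, 20.9, 19.8 and 18.4 CPM with DMSO, without overlap (0.56 ± 0.13, adjusted p = 0.0147, and 2.82e-05 with the block). Of 18 protease inhibitor genes tested, 1 was called, Spint1, and the block called 3, Spint1, Serpinb2 and Serpinb8, all higher. Of 16 matrix metalloproteinases and their TIMP inhibitors tested, Mmp8 and Mmp27 were called and 10 had a positive log2 fold change. Over all genes tested 0.0482% were called higher, 0.22% with the block, and 51.3% were positive. The next metalloproteinase was Mmp12, macrophage elastase, at 0.47 ± 0.17 (adjusted p = 0.294).

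Of 12 listed AhR targets, 7 had enough counts for the test. Ahrr was called, and the median of the 7 was 0.43 beside 0.004 over all genes tested, and -0.05 in Ahr-/- BMMs. Of the 7, 5 were positive, while Cyp2s1 at -1.645 and Ugt1a6a at -0.23 were negative and not called. Nqo1 was measured at 5.73, 3.18, 7.96 and 3.96 CPM with I3C and 2.88, 1.42, 3.27 and 2.00 CPM with DMSO. The groups overlapped, the replicates stood in the same order under both treatments, and in 4 of 4 pairs the I3C library was higher. Its log2 fold change was 1.13 ± 0.26 (adjusted p = 0.0112, and 1.12e-05 with the block). Tiparp had 108, 106, 104 and 95.6 CPM against 86.3, 89.0, 64.5 and 66.1 CPM, with no overlap and 0.43 ± 0.26 on the log2 scale (adjusted p = 1).

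The Cyp1 genes themselves were hardly counted. Cyp1a1 had a mean of 0.0942 CPM with I3C and 0.0734 CPM with DMSO, and was below the filter on low counts. Cyp1b1 was below it too, at 0.512, 0.331, 0.302 and 0.166 CPM with I3C and 0.0898, 0.0374, 0.0943 and 0 CPM with DMSO, so that its groups did not overlap at a very low level. Ahr was at 11.4, 10.7, 11.2 and 10.6 CPM with I3C and 14.9, 12.7, 12.7 and 11.9 CPM with DMSO, lower in every I3C library (-0.25 ± 0.20, adjusted p = 1). Read pairs on Ahr were also counted in Ahr-/- BMMs, at a mean of 24.8 CPM with DMSO and 21.9 CPM with I3C, so the gene-level count does not show the deletion. None of the 7 genes of the AhR complex, which holds AhR, ARNT and their chaperones, was called.

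NRF2 switches on genes against oxidative stress, and 24 of 25 listed ones were tested. None was called, 20 of the 24 were positive (51.3% of all genes tested were), and the median was 0.16. With the block 5 passed, all higher, namely Nqo1, Prdx1, Cat, Srxn1 and Txnrd1, beside 0.22% of all genes tested. Prdx1, a peroxiredoxin, rose by the blocked test from 3004 ± 174 to 3986 ± 433 CPM (0.41 ± 0.12, adjusted p = 0.119, and 0.00157 with the block). For sulfiredoxin, Srxn1, the values were 215, 181, 215 and 191 CPM with I3C and 159, 150, 166 and 159 CPM with DMSO (0.34 ± 0.11, adjusted p = 0.228, and 0.00673 with the block). Txnrd1, thioredoxin reductase, had 472, 404, 490 and 432 CPM against 385, 351, 401 and 381 CPM, also with no overlap (0.24 ± 0.10, adjusted p = 0.491, and 0.00166 with the block). In Ahr-/- BMMs the median of the NRF2 list was 0.17, with Srxn1 at 0.23 and Txnrd1 at 0.19 there. Of 16 glutathione transferases tested none was called, with Gsta3 at 0.61 ± 0.22 (adjusted p = 0.373).

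Most of the protein-coding genes called with I3C were lower, and most of these were very long. The 34 lower protein-coding genes had log2 fold changes from -3.02 to -0.37 with a median of -1.12. Their median genomic span, from start to end with introns, was 457 kb, against 23.5 kb in protein-coding genes that were not called and 13.4 kb in the 7 higher genes. The median length of their exons was 8.36 kb against 4.46 kb in genes not called. In 32 of the 34 all I3C libraries lay below all DMSO libraries (3.66% of all genes tested did), and Bbs9 and Dock1 were the exceptions. The 34 were called on these same libraries, so this is largely set by the choice.

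Smyd3, a lysine methyltransferase, spans 566 kb (chr1:178951960-179518041) and had the lowest adjusted p of all genes. It was measured at 1.30, 1.24, 0.943 and 1.33 CPM with I3C and 3.01, 3.29, 3.90 and 4.00 CPM with DMSO. The highest I3C library was thus far below the lowest DMSO library. The log2 fold change was -1.57 ± 0.15 (adjusted p = 5.05e-10). Wwox, a tumour suppressor gene of 913 kb (chr8:114439655-115352708), had 3.59, 3.39, 2.64 and 3.36 CPM against 6.74, 8.44, 8.27 and 8.58 CPM (-1.31 ± 0.15, adjusted p = 6.44e-08). Gmds, which makes the precursor of GDP-fucose and spans 519 kb, had 1.44, 1.53, 1.47 and 1.26 CPM against 3.82, 4.45, 4.87 and 5.56 CPM (-1.72 ± 0.20, adjusted p = 9.03e-08). In CPM the I3C libraries of each gene lay closer together than the DMSO libraries. Relative to their lower level they did not for Smyd3 and Wwox.

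Several of the long genes were rare. For Pard3b, the polarity gene with the largest fall, 0, 2, 0 and 3 read pairs with I3C stood against 10, 10, 14 and 20 with DMSO, so its fitted -3.02 rests on few counts. Esr1, the estrogen receptor alpha, had 0.606, 0.413, 0.603 and 0.499 CPM against 2.16, 1.42, 1.92 and 1.24 CPM (-1.65 ± 0.28, adjusted p = 0.000238). Diaph3, a formin that assembles actin, had 0.512, 0.620, 0.490 and 0.333 CPM against 1.71, 2.24, 0.754 and 1.70 CPM (-1.71 ± 0.38, adjusted p = 0.00743). DMSO replicate 3 lay nearest to the I3C group for Diaph3.

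Genes of higher level were among them too, with smaller changes. Slc39a11, a zinc transporter of 405 kb, had 17.2, 15.3, 15 and 18.0 CPM with I3C and 26.3, 24.4, 25.1 and 26.2 CPM with DMSO (-0.64 ± 0.09, adjusted p = 3.28e-06). Trappc9, a subunit of the TRAPP vesicle tether, had 16, 17.3, 18.6 and 18.0 CPM against 25.6, 26.2, 33.9 and 26.8 CPM (-0.69 ± 0.09, adjusted p = 1.28e-06). Further members included the exocyst subunit Exoc4 at -0.57, the protein kinase C gene Prkce at -0.97, and Elmo1, which acts in engulfment, at -0.40. The shortest of the 34 was Gm6133, at 0.948 kb. It had 0.652, 0.785, 0.679 and 0.766 CPM against 1.71, 1.64, 3.83 and 3.30 CPM, and a log2 fold change of -2.08 at 3 h, where the median of the 34 was -0.21.

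Over all 12015 protein-coding genes tested, the fall appeared in the longest. Among 116 genes of 400 kb or more, 22 were called lower (19.0%), 97 were negative (83.6%) and the median was -0.27. Over all protein-coding genes tested 0.283% were called lower, 45.5% were negative and the median was 0.01. The 116 genes were also less expressed, at a median log2 CPM of 3.09 against 4.45 over all protein-coding genes. In the 358 genes from 200 to 400 kb, 10 were called lower and the median was -0.10. Of 978 genes from 100 to 200 kb 1 was called lower. Of 2915 genes under 10 kb also 1 was called lower, and their median was -0.02 with 57.8% negative. None of the 4065 and 3583 genes in the classes between was called lower, and their medians lay at 0.02 and 0.04. Genes share length classes, so these counts describe the libraries and are not independent observations.

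**Figure D2:**
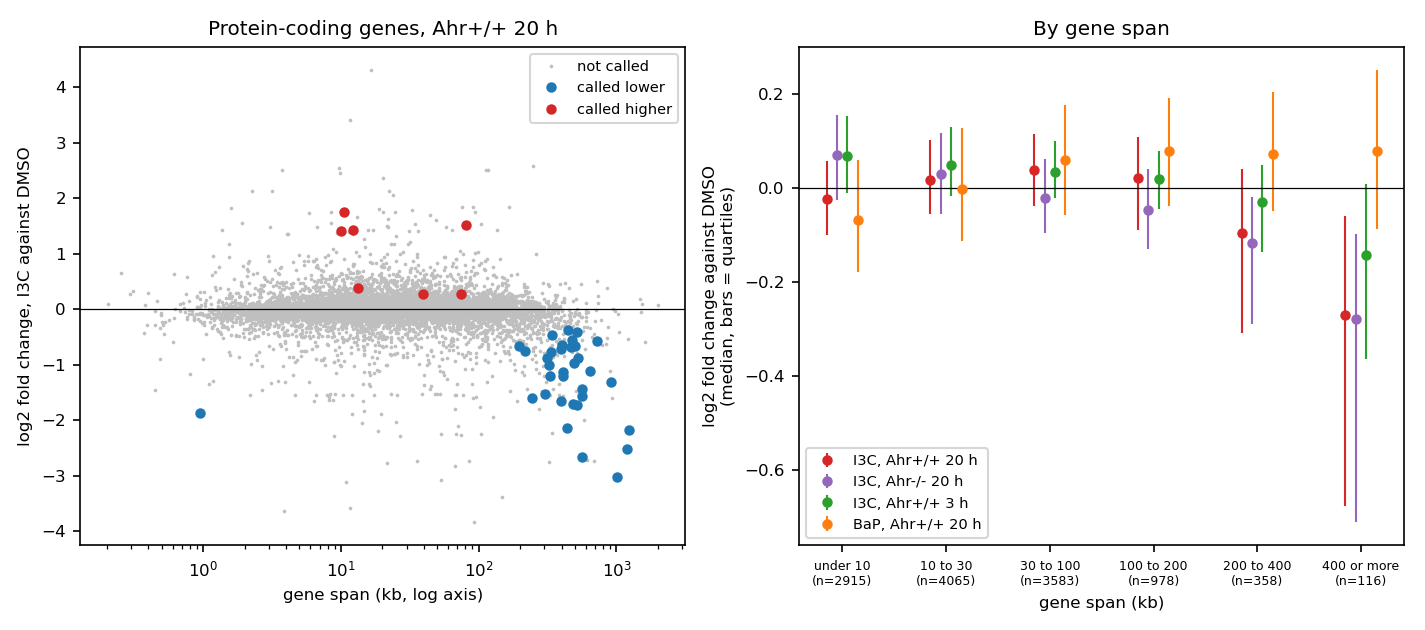
Left, log2 fold change of I3C against DMSO of each protein-coding gene against its genomic span in kb (log axis), with called genes in colour. Right, medians with quartiles by span class for Ahr+/+ BMMs at 20 h, Ahr-/- BMMs at 20 h, Ahr+/+ BMMs at 3 h, and for BaP in Ahr+/+ BMMs at 20 h. In genes of 400 kb or more the I3C medians are -0.27, -0.28 and -0.14, and that of BaP is 0.08.

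**Figure D3:**
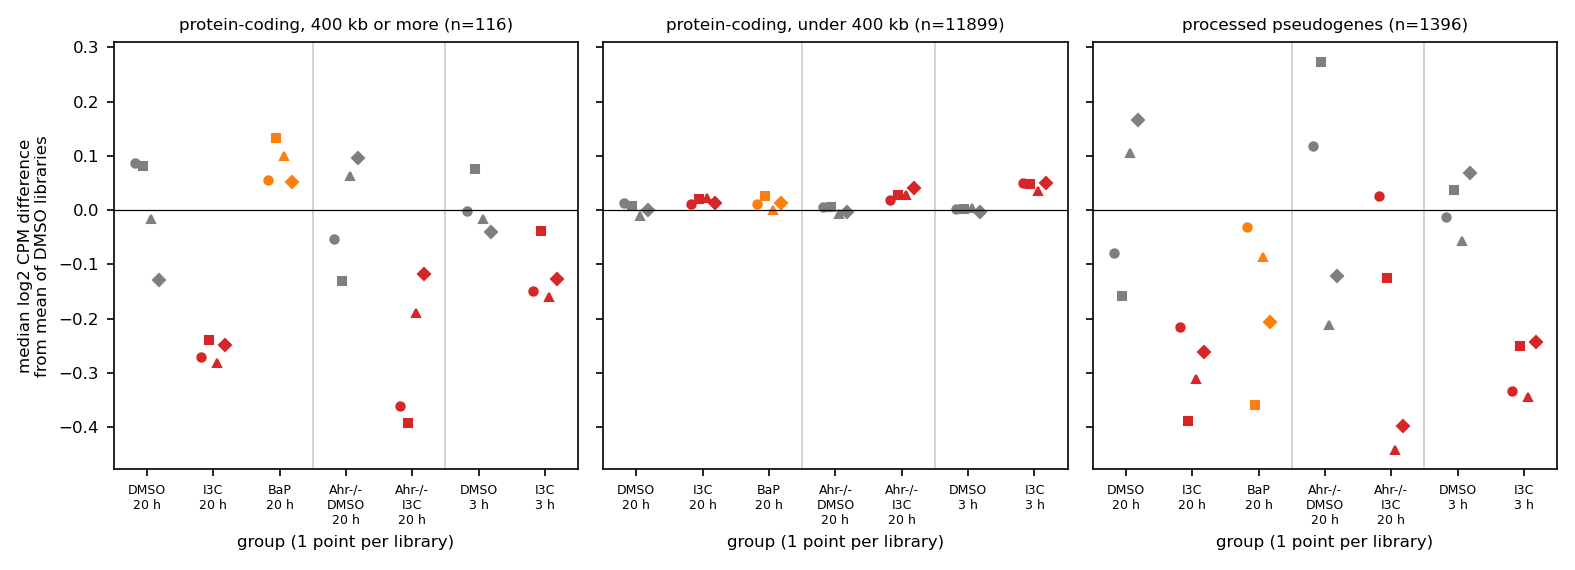
Median log2 CPM difference from the mean of the DMSO libraries for long protein-coding genes, shorter ones and processed pseudogenes, with 1 point for a library. For protein-coding genes of 400 kb or more, the Ahr+/+ I3C libraries at 20 h lie between -0.28 and -0.24 and the DMSO libraries between -0.13 and 0.09.

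The fall of long genes was also present without the receptor. In Ahr-/- BMMs 30 genes were called with I3C, all of them lower (0.206%), 16 protein-coding and 14 processed pseudogenes. Of these 30, 25 were also among the 67 lower in Ahr+/+ BMMs, and 13 of the 25 were protein-coding. With the block 66 genes passed in Ahr-/- BMMs, all lower, while in a fit of those 8 libraries alone edgeR called none and DESeq2 39. With the block on those 8 libraries alone 506 passed, 247 higher and 259 lower. The 34 lower protein-coding genes had a median of -0.79 there, and 33 of 34 were negative, with Agap1 at 0.03 as the exception. Of all protein-coding genes with a negative value in Ahr+/+ BMMs, 39.4% were negative in Ahr-/- BMMs. Wwox fell by 1.18 in Ahr-/- BMMs (from 8.08 ± 0.917 to 3.57 ± 0.421 CPM, adjusted p = 1.61e-06), close to its value in Ahr+/+ BMMs. Smyd3 fell by 0.81 there (adjusted p = 0.000444). The direct test between the genotypes gave an unadjusted p below 0.05 for 12 of the 34, among them Smyd3 at -0.75 ± 0.21 (adjusted p = 0.987), and passed for none. That test shares the Ahr+/+ libraries by which the 34 were chosen.

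At 3 h after activation long genes had moved less. I3C called 19 genes at 3 h (0.131%), the higher genes Ahrr and Arl4c (0.0138%) and 17 lower genes, all processed pseudogenes. None of the 34 long or other protein-coding genes lower at 20 h was called at 3 h, where their median was -0.21 and 30 were negative. Of all protein-coding genes negative at 20 h, 35.9% were negative at 3 h. The 34 were chosen for their fall at 20 h, which favours a smaller value at 3 h. Over all 116 genes of 400 kb or more, the median was -0.14 at 3 h and -0.27 at 20 h. The I3C effect differed between the times for 4 genes (0.0275%), Smyd3, Gmds, Cmss1 and Slc39a11, with the more negative value at 20 h in each. For Smyd3 the difference between the times was -1.15 ± 0.21 (adjusted p = 0.00861), for Gmds -1.46 ± 0.27 and for Cmss1 -1.38 ± 0.26, both at the same adjusted p, and for Slc39a11 -0.65 ± 0.12 (adjusted p = 0.00982). This count was 0 to 3 when 1 library was left out, and 0 without the filter on low counts. Slc39a11 stood at 52.3 ± 1.92 CPM with DMSO and 52.7 ± 4.08 CPM with I3C at 3 h. Its level under DMSO was thus far lower at 20 h, at 25.5 ± 0.918 CPM, while resting BMMs held 48.9 ± 3.51 CPM. Smyd3 and Gmds too were lower in activated than in resting BMMs, at means of 3.55 and 4.67 CPM with DMSO against 7.60 and 12.2 CPM. Wwox was not, at 8.01 against 7.59 CPM.

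BaP, a polycyclic aromatic hydrocarbon that binds AhR, left these genes nearer to their DMSO level. Its dose was 1 µM and that of I3C 10 µM, so the values compare treatments as given and not the compounds at a matched dose. BaP was higher than I3C for 41 genes (0.282%) and lower for none, and 31 of the 41 were protein-coding and 10 processed pseudogenes. Of the 41, 32 were among the 67 genes lower with I3C, which were chosen with the same I3C libraries. With the block 77 genes differed, 69 higher and 8 lower with BaP. Smyd3 had 3.22 ± 0.538 CPM with BaP, close to the 3.55 ± 0.479 CPM with DMSO, and its difference from I3C was 1.42 ± 0.15 (adjusted p = 1.49e-08). Wwox, with 7.99 ± 1.36 CPM, was higher than with I3C by 1.30 ± 0.15 (adjusted p = 8.31e-08). For the 4 strongest of the higher genes no difference between the ligands passed. Ahrr had 18.7 ± 1.52 CPM with BaP (0.22 ± 0.17 above I3C, adjusted p = 1), Mmp8 27.4 ± 4.81 CPM (0.20 ± 0.19, adjusted p = 1), Mmp27 2.5 ± 0.651 CPM (0.17 ± 0.29, adjusted p = 1) and Spint1 7.10 ± 0.366 CPM (0.12 ± 0.20, adjusted p = 1). Against the same DMSO libraries, BaP called 34 genes (0.234%), 14 higher and 20 lower, and 4 of the 14 were Ahrr, Mmp8, Mmp27 and Spint1.

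**Figure D4:**
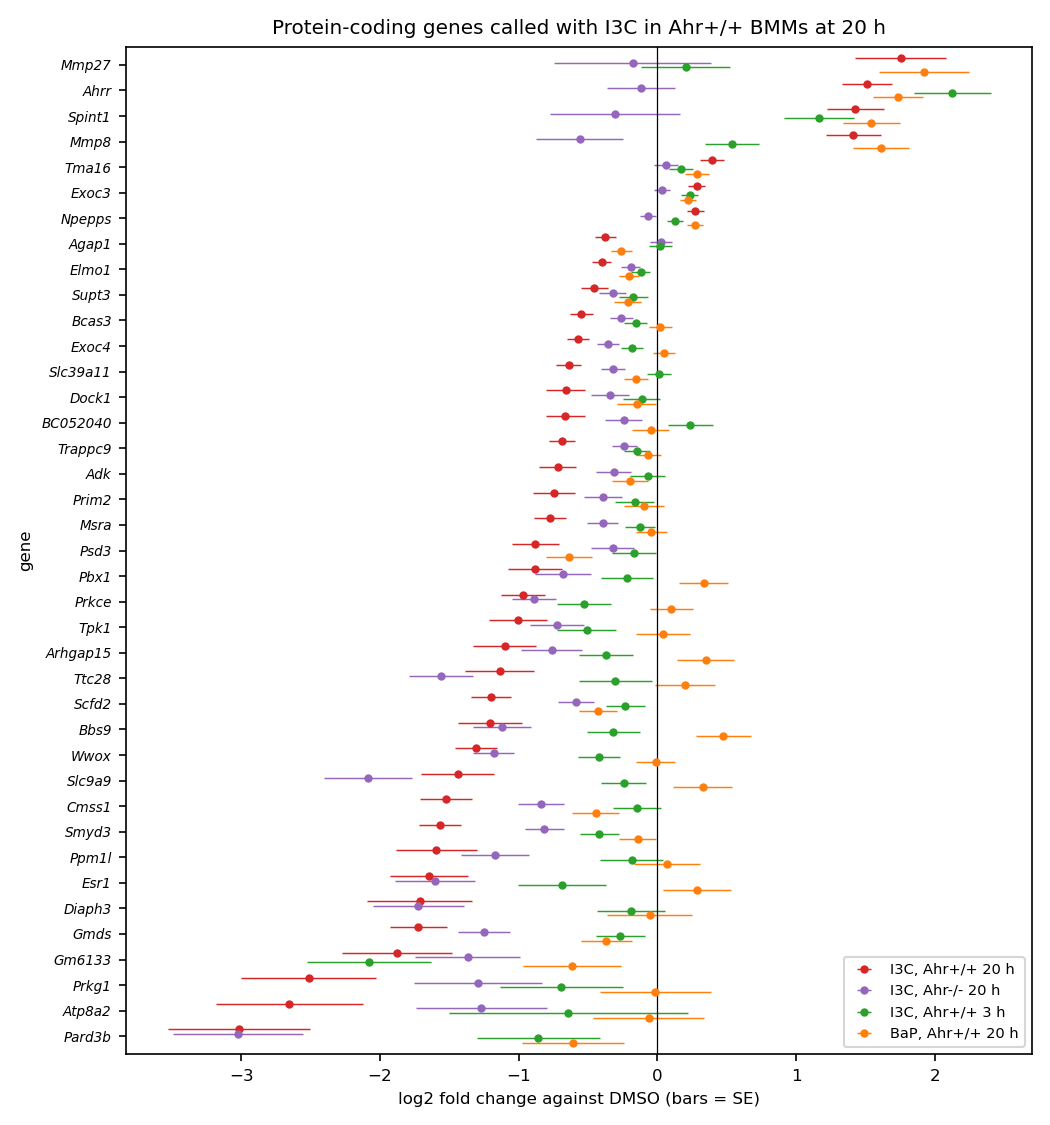
Log2 fold change with its standard error for protein-coding genes called with I3C in Ahr+/+ BMMs at 20 h, beside the values of the same genes in Ahr-/- BMMs, at 3 h and with BaP. The lower genes are also negative in Ahr-/- BMMs, with 1 exception (Agap1), and lie nearer to 0 with BaP, at a median of -0.06.

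Processed pseudogenes are copies of a gene's spliced RNA that were put back into the genome, and most have no promoter of their own. The 33 called were all lower, by -5.90 to -1.03 with a median of -1.75. In all 33 every I3C library lay below every DMSO library, beside 3.66% of all genes tested. The 33 were called on these same libraries, so this is largely set by the choice. Over the 1396 processed pseudogenes tested the median was -0.32 and 75.1% were negative. Pseudogenes of every type, tested or not, took 0.479% to 0.495% of the counts with I3C and 0.512% to 0.550% with DMSO. Each of the 33 was matched by blastn to its most similar protein-coding transcript, its parent, at 86.2% to 99.2% identity (median 96.7%). For 20 of the 33 the parent was a ribosomal protein gene. Of 1393 tested pseudogenes with a match, 431 had such a parent. The log2 fold changes of the parents of the 33 lay between -0.17 and 0.10, and none was called. For 1381 of the tested pseudogenes the parent was tested too, and none of these parents was called. Since the 33 were chosen for their fall, the wider set bears more on the pseudogene against its parent. There 1024 of 1381 pseudogenes had a lower log2 fold change than the parent, and the 1024 include all 33.

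Gm5869 had the lowest adjusted p among them. It lies at chr5:86997159-86998415 (GRCm38) and is 96.3% identical over 1257 bases to the transcript of Eef1a1, the translation elongation factor 1 alpha. The 90 bases below show how alike the copies are, with the 2 differing bases in capitals. They are chr5:86997459-86997548 on the plus strand for Gm5869, and bases 301 to 390 of the coding sequence for Eef1a1 (GENCODE M21).
Gm5869: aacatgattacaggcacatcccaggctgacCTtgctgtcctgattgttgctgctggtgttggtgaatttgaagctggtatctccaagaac
Eef1a1: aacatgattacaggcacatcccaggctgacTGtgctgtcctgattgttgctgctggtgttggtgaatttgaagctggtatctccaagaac

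Gm5869 was counted at 3.91, 3.76, 3.77 and 2.83 CPM with I3C and 9.34, 7.77, 16.4 and 14.1 CPM with DMSO. All I3C libraries were below all DMSO libraries, which themselves differed widely (-1.75 ± 0.23, adjusted p = 1.28e-06). Eef1a1 stood at -0.03 ± 0.07 (adjusted p = 1). Counts on such copies are uncertain, since only pairs with a unique alignment were counted and a pair from the parent can align to the copy. The part of the parents' reads in this fall was not tested. All 33 pseudogenes were negative in Ahr-/- BMMs (median -1.26), and 12 of them were called there, beside 0.206% of all genes. Of all processed pseudogenes negative in Ahr+/+ BMMs at 20 h, 76.5% were negative in Ahr-/- BMMs. At 3 h all 33 were negative too (median -1.60), beside 80.7% of those negative at 20 h, and 11 were called, beside 0.131% of all genes. With BaP 31 of the 33 were negative (median -0.30, none called), against the same DMSO libraries by which the 33 were chosen. Of all 1396 processed pseudogenes 70.6% were negative with BaP, with a median of -0.18. At 3 h edgeR gave an unadjusted p below 0.05 for 33 of the 33 pseudogenes and for 7 of the 34 protein-coding genes. It did so for 744 of all 14537 genes tested. Gm5869 was at -1.36 ± 0.23 in Ahr-/- BMMs (adjusted p = 0.000355), at -1.66 ± 0.24 at 3 h (adjusted p = 3.32e-05) and at -0.05 ± 0.21 with BaP (adjusted p = 0.956).

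The share of read pairs on no gene was 3.55% to 4.75% with I3C and 4.00% to 5.47% with DMSO. The ranges overlapped, but the share was lower with I3C in 4 of 4 pairs of the same replicate number, and in 4 of 4 pairs of Ahr-/- BMMs at 20 h. At 3 h it was lower in 2 of 4 pairs of Ahr+/+ BMMs and in 4 of 4 of Ahr-/- BMMs. The number of genes detected was also lower with I3C in 4 of 4 pairs at 20 h in each genotype, at 16940 to 17601 against 17205 to 18582 in Ahr+/+ BMMs, where the counted read pairs were fewer with I3C in 4 of 4 pairs as well. Intronic and other unannotated RNA would fall there, and its part in the counts of the long genes and pseudogenes was not tested.

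Of 565 tested genes in 28 pathway lists, immune and other, 4 were called (0.708%, beside 0.509% of all genes), Ahrr, Mmp8, Mmp27 and Spint1. They stood in the lists of AhR targets, of matrix metalloproteinases and of protease inhibitors, and in the other 25 the median log2 fold change lay between -0.11 and 0.16. Interferons induce a broad set of antiviral genes, of which 56 of 57 listed were tested. None was called and none had an unadjusted p below 0.05, but 49 of the 56 were positive (51.3% of all genes tested were), with a median of 0.15. In 13 of them the groups did not overlap, all higher (1.92% of all genes tested did not overlap in this direction). Genes of a list can move together, so these counts are not independent observations. The list's median difference from the mean of the DMSO libraries was 0.147, 0.157, 0.0305 and 0.247 in the I3C libraries. In the DMSO libraries it was 0.0589, 0.0892, -0.141 and 0.0403. The groups thus overlapped, with each I3C library above its own pair. The median of the list was -0.03 in Ahr-/- BMMs, 0.02 at 3 h and 0.25 with BaP, whose value rests on the same DMSO libraries. Parp14, a mono-ADP-ribosyltransferase, had the lowest p of the list, at 1020, 1002, 1097 and 1157 CPM with I3C and 920, 948, 861 and 867 CPM with DMSO (0.25 ± 0.16, adjusted p = 1). Ly6a, the surface antigen Sca-1, was the member that passed with the block. It had 69.3, 101, 30.8 and 47.9 CPM against 44.9, 74.2, 21.1 and 30.6 CPM, so the spread within a group was wider than the step within a pair, and each I3C library was above its own pair (0.55 ± 0.44, adjusted p = 1, and 0.00144 with the block). Interferon factors, from receptors to STAT and IRF proteins, were positive in 22 of 26, with a median of 0.07, and Irf1 at 0.26 ± 0.11 (adjusted p = 0.703). Ifng itself did not exceed 0.128 CPM in these libraries.

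Pattern recognition receptors and their adaptors were positive in 26 of 31, with a median of 0.12 and no call. The cytokine list was evenly split, with 11 of 24 positive and a median of -0.04. Chemokines were the list with the lowest median, -0.11, and 7 of 21 positive. The largest change among them was a positive one, Cxcl5 at 2.13, which was not called. Ccl4, a chemokine for T cells and monocytes, had 385, 398, 326 and 457 CPM with I3C and 548, 472, 378 and 610 CPM with DMSO, lower in 4 of 4 pairs with overlapping groups (-0.36 ± 0.16, adjusted p = 0.646). Ccl3, at -0.35 ± 0.18 (adjusted p = 0.871), was lower in all pairs too. Cxcl3, which attracts neutrophils, was higher in 4 of 4 pairs at 0.65 ± 0.31 (adjusted p = 0.803). Of 34 cytokine receptors none was called, and Il21r, the interleukin 21 receptor, came nearest at 85.2, 84.4, 88.3 and 94.7 CPM against 59.5, 65.1, 64.5 and 65.7 CPM (0.47 ± 0.14, adjusted p = 0.13). Il12rb1, a receptor chain for interleukins 12 and 23, was at 0.58 ± 0.30 (adjusted p = 0.943). None of the 17 Fc receptor and SLAM family genes was called, with Cd84 at 0.23 ± 0.13 (adjusted p = 1) and Spn at -0.34 ± 0.14 (adjusted p = 0.574).

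Igf1r, the receptor of insulin-like growth factor 1, was the member of its list that passed with the block. It was at 0.978, 1.07, 1.77 and 0.766 CPM with I3C and 1.98, 1.38, 2.42 and 1.92 CPM with DMSO (-0.75 ± 0.21, adjusted p = 0.0647, and 0.00884 with the block). It was lower in 4 of 4 pairs, with overlap, and its span of 281 kb places it in the class from 200 to 400 kb. The other 15 IGF and insulin signaling genes tested were not called. Of the 7 tryptophan and kynurenine enzymes tested none was called, with Ido2, which opens the tryptophan ring, at 0.76 ± 0.34 (adjusted p = 0.699).

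**Figure D5:**
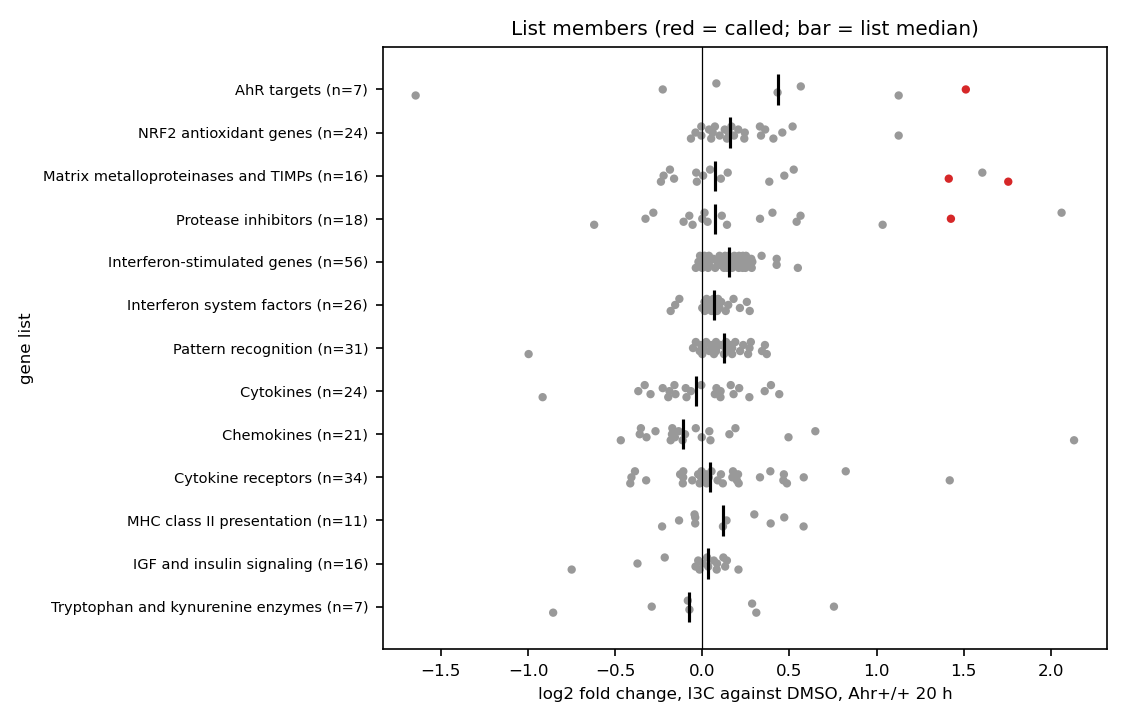
Log2 fold change of I3C against DMSO in Ahr+/+ BMMs at 20 h for the members of 13 pathway lists, with 1 point for a gene, called genes in red and a bar for the list median. The median is 0.43 for the AhR targets, and lies between -0.11 and 0.16 in the lists without a called member.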

How the data were processed

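RNA of BMMs was sequenced as stranded paired-end mRNA libraries, all 64 pooled over 1 flow cell. The authors made the deposited counts by demultiplexing (bcl2fastq 2.19.0.316), aligning to mm10 with HISAT2 2.1.0 and counting uniquely aligned read pairs on the gene's strand with HTSeq 0.9.1 against GENCODE M22, per the submitters' processing notes and the study's methods. The deposited log2 values are the authors' variance-stabilizing transformation by DESeq2 and entered 1 alternative only. The 5 entries of each count file that name no gene entered neither library sizes nor tests. Of all read pairs in the 64 libraries, 3.41% to 5.92% lay on no gene. Library totals on genes ran from 12152496 to 233047331.

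Counts were fitted in R 4.3.3 with edgeR 4.0.16 (TMM scaling, filterByExpr with min.count 10, quasi-likelihood test, 16 groups of 4 libraries, 48 residual and 5.06 prior degrees of freedom, Benjamini-Hochberg adjustment over 14537 of 55487 genes, threshold 0.01). CPM are TMM-scaled, with a prior count of 2 on the log scale. Alternatives used limma 3.58.1 on the log2 values and DESeq2 1.42.0. Gene spans, types and symbols came from GENCODE M21 and promoters from RefSeq (GRCm38.p6). Parents of pseudogenes were found with blastn 2.17.0. In a test on simulated data for the I3C contrast, run on 14537 genes, 123 of 200 changed genes were recovered, 78 of 100 at a log2 change of 1.5 and 45 of 100 at 0.75, with 0 false calls.

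Deviations from the group means of same-numbered I3C and DMSO libraries correlated in Ahr+/+ BMMs at 20 h (r = 0.202, 0.212, 0.255 and 0.222 for replicates 1 to 4, each highest with its own number), so the numbers were taken to pair the libraries there. The main test did not use these pairs, and only the replicate block did. In Ahr-/- BMMs r was 0.541 to 0.644, and replicates 1 and 2 deviated together and apart from 3 and 4.

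Genes were named by a rule: of the called genes without overlap between the groups, the 15 higher and 15 lower with the largest change, pseudogenes left out; genes the study names; called members of the lists and up to 4 members with the lowest p; and up to 10 genes called by genotype, by time and between BaP and I3C. A few items are not reported here. Others (Elane, Mpo, Ly6g, Lcn2, Ngp, Camp, Cxcr2, Gm6133, Serpinb8, Acpp, Pard3b counts) were added after their values were seen. The members and lists were chosen with earlier results of these data known.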

Additional observations from a re-analysis of the deposited data

Results flagged for a closer look

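In 118 groups of 4 libraries that were looked at, 11 held a library that stood apart from the other 3, where the gap to its nearest neighbour took up most of the group's range (Dixon's criterion at 95%). Chance alone sets about 1 in 20 groups apart in this way, which is 5.9 of 118.

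Among the I3C libraries these were the lowest library of Npepps (0.867 of the range), Mx1 (0.891), Lcp2 (0.880) and Gm5869 (0.860). For Npepps it was replicate 2, at 176 CPM beside 188 to 190 CPM, and for Gm5869 replicate 4, at 2.83 CPM beside 3.76 to 3.91 CPM.

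Among the DMSO libraries they were the highest library of Irf1 (0.869), Fcgr3 (0.911) and Trappc9 (0.855), and the lowest of Iigp1 (0.842), Tlr9 (0.860), Casp1 (0.844) and Lcp2 (0.867). For Trappc9 it was replicate 3, at 33.9 CPM beside 25.6 to 26.8 CPM, so the library that stood apart lay farther from the I3C group than the rest.

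The effect of I3C differed between Ahr+/+ and Ahr-/- BMMs for Ahrr by 1.64 on the log2 scale, for Mmp8 by 1.99, for Acpp by 0.94 and for Serpinb2 by 2.51, all in edgeR's quasi-likelihood test with the replicate block (adjusted p = 0.00167 for Ahrr, 4.86e-06 for Mmp8, 0.00555 for Acpp and 9.75e-07 for Serpinb2).

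Between 20 h and 3 h the effect of I3C in Ahr+/+ BMMs differed by -1.15 for Smyd3, -1.46 for Gmds, -1.38 for Cmss1 and -0.65 for Slc39a11. With the replicate block it also differed for Mmp8 (0.89) and Serpinb2 (1.40), both higher at 20 h, and for Msra, a methionine sulfoxide reductase (-0.64).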

How the results depend on the processing

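The number of genes called with I3C in Ahr+/+ BMMs at 20 h was 74. It was 124 at an adjusted p below 0.05, 46 by edgeR on the 8 libraries alone, 145 by DESeq2 on them and 43 by limma on the log2 values, all mostly lower, with 74, 31, 59 and 43 of the 74 among them. Leaving out 1 library gave 36 to 74. It was 36 without I3C replicate 3, 41 without DMSO replicate 4, 43 without I3C replicate 2, and 44 without I3C replicate 4 or DMSO replicate 3. The same settings in this order gave 51, 0, 39 and 14 in Ahr-/- BMMs (30 as reported, 10 to 39 with 1 library left out), 2, 0, 3 and 3 between the genotypes (0 as reported, 0 to 1), 64, 63, 104 and 61 at 3 h (19 as reported, 6 to 12), 86, 20, 73 and 26 for BaP against I3C (41 as reported, 26 to 45) and 101, 25, 199 and 34 for BaP against DMSO (34 as reported, 8 to 35). DESeq2 on all libraries called 2 genes between the genotypes, 44 at 3 h and 90 for BaP against DMSO. Without a filter on low counts BaP against DMSO called 21. The 4 genes that differed between 20 h and 3 h became 0 without the filter, in edgeR on those groups alone and by limma, and 0 to 3 with 1 library left out, but remained 4 with DESeq2 on all libraries.

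With the replicate block on all libraries the counts were 147 at 20 h, 66 in Ahr-/- BMMs, 4 between the genotypes, 57 at 3 h, 7 between the times, 77 for BaP against I3C and 271 for BaP against DMSO. With the block on the groups compared alone they were 387, 506, 51, 285, 4, 374 and 492 in the same order. In Ahr+/+ BMMs 157 of these were higher and 230 lower at 20 h, and 97 and 188 at 3 h. In Ahr-/- BMMs 247 were higher and 259 lower, and BaP against I3C gave 268 higher and 106 lower. The calls in a single direction in Ahr-/- BMMs and between the ligands thus did not hold in this fit. The block raised the calls among the 565 listed genes from 4 to 14 (0.708% to 2.48%), beside 0.509% to 1.01% of all genes. At 3 h not every pair correlated above 0.1, so there the number is only a hint of pairing.

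The median span of the protein-coding genes called lower was 457 kb, and 405 kb among those called with the block, an alternative chosen after seeing the data. Of 1118 values for 59 named genes under the alternatives, 1023 kept their side of the threshold, 73 lost the call, 21 gained it and 1 changed sign by more than its standard error. This was Gprc5b, which was not called, at 0.14 as reported, -0.18 without I3C replicate 1, and -0.18 to 0.43 over the libraries left out. Genes of a few read pairs limit the size of a fall that can be given. The cause of these changes was not tested.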

Other observations

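Lists outside the comparisons above held no called gene. Among lipid mediator genes, Ptgs2, the inducible cyclooxygenase, had 1256, 1070, 928 and 1146 CPM with I3C and 856, 816, 558 and 792 CPM with DMSO, without overlap (0.54 ± 0.20, adjusted p = 0.382 by edgeR). Its relative Ptgs1 was rare, at 0.652, 0.207, 0.566 and 0.300 CPM against 0.0898, 0.112, 0.283 and 0.106 CPM, and higher in 4 of 4 pairs (1.48 ± 0.46, adjusted p = 0.147). Pla2g7, the phospholipase that breaks down platelet-activating factor, was at 513, 629, 848 and 569 CPM against 342, 476, 593 and 424 CPM and passed with the replicate block alone (0.48 ± 0.17, adjusted p = 0.331, and 0.00787 with the block). In all, 11 of 15 tested genes of this list were positive, with a median of 0.07 beside 0.004 over all genes.

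Antigen presentation by MHC class II had a median of 0.12 over 11 genes, 6 of them positive. H2-Aa, a class II chain, stood at 0.47 ± 0.24 (adjusted p = 0.886) and Ciita, the master regulator of these genes, at 0.58 ± 0.33 (adjusted p = 1). Nos2, which makes nitric oxide, was at 0.53 ± 0.29 (adjusted p = 1), and its list was positive in 8 of 9 with a median of 0.11. Macrophage surface and lineage genes were positive in 22 of 31, with a median of 0.06 and Gpnmb, a lysosomal glycoprotein, at 0.44 ± 0.17 (adjusted p = 0.425).

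The lists of basal processes lay near 0. Their medians were -0.05 for 31 cell cycle genes, -0.01 for 19 p53 targets, 0.01 for 23 genes of glycolysis and HIF-1, 0.03 for 25 chaperones, 0.04 for 27 genes of sterol synthesis and efflux, and -0.04 for 22 genes of the unfolded protein and amino acid response, of which 6 were positive. The medians were -0.03 for 18 NF-kB subunits and feedback genes, -0.01 for 8 genes of the phagocyte oxidase and -0.05 for 12 genes of costimulation and checkpoints.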
